A study of Homo sapiens with 60 samples.

Results

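Fibrillar collagens are the rod-shaped proteins that make up the banded fibrils of connective tissue, and 7 of their genes were followed here through all 20 treatment groups of an RNA-seq series in SW1783 cells, a human astrocytoma line. The genes are COL1A1, COL1A2, COL3A1, COL5A1, COL5A2, COL5A3 and COL11A1. They were chosen by gene name through their Ensembl identifiers, with earlier results of these data known, and all 7 rows were found among the 60675 gene rows of the deposited table. All 7 also passed the filter on low counts, which kept 17792 genes.

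Each group had 3 libraries, 60 in all, made from cells in L-15 medium with fetal bovine serum that were collected 24 h after treatment. Wortmannin, an inhibitor of phosphoinositide 3-kinases that the study used as positive control, was given at 10 µM. Water extracts of Liriopis seu Ophiopogonis Tuber, Schisandrae Fructus, Longan Arillus, Zizyphi Semen and Aucklandiae Radix were given at 20, 100 and 500 µg/mL, and that of Polygalae Radix at 10, 50 and 250 µg/mL. These doses are called low, medium and high below, and extracts are named by their first word. The vehicle was DMSO, at 0.1% per the sample labels and 2% per the series description. The labels give no DMSO content for the extracts or for wortmannin. Library names place vehicle, wortmannin, Liriopis with Schisandrae, Longan with Zizyphi, and Polygalae with Aucklandiae in 5 separate library sets. Treatment and library set therefore cannot be told apart in a comparison with vehicle, whereas doses of an extract share a set. All comparisons with vehicle use the same 3 vehicle libraries. Whether the replicates are separate cultures is not stated, so the p-values reflect the spread among libraries of a group, which may be technical.

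Collagen genes encode single alpha chains, and a fibrillar collagen is a triple helix of such chains. Type I collagen, the main fibril former, is usually built from a pair of α1(I) chains (COL1A1) and 1 α2(I) chain (COL1A2), while type III is a homotrimer of COL3A1 chains. Type V (COL5A1, COL5A2, COL5A3) and type XI (COL11A1 with other chains) are minor collagens that sit inside fibrils and are known for setting their number and width. Chains are hydroxylated and folded in the endoplasmic reticulum, exported in COPII-coated carriers, cleaved at their propeptides outside the cell and crosslinked by lysyl oxidases. Normal brain tissue holds little fibrillar collagen outside vessels and meninges, and cultured glioma cells often express it.

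The genes lie on 6 chromosomes in GENCODE 29 coordinates of GRCh38. COL3A1 (chr2:188974320-189012746, plus strand) and COL5A2 (chr2:189031896-189225312, minus strand) are neighbours that point towards each other across 19.1 kb. COL1A1 lies at chr17:50183289-50201632 on the minus strand, COL1A2 at chr7:94394561-94431232 on the plus strand, COL5A1 at chr9:134641774-134844843 on the plus strand, COL5A3 at chr19:9959561-10010471 on the minus strand and COL11A1 at chr1:102876467-103108872 on the minus strand. The strand setting of the counting is not given in the sources used here. COL5A3 shares 270 exonic bases with the antisense gene AC008742.1, which had at most 1 read in any library, and COL5A1-AS1 shares no exonic base with COL5A1.

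Promoter windows from RefSeq (GRCh38.p14, 250 bases before to 50 bases after the start) were available for 3 of the 7 genes and are shown as a description only. Capitals mark matches, on either strand, to GGGCGG (a GC box), CCAAT or CAGAC. COL11A1 spans chr1:103108473-103108772 on the minus strand, COL5A1 chr9:134641553-134641852 on the plus strand (the first of 2 entries) and COL5A3 chr19:10010455-10010754 on the minus strand.
COL11A1: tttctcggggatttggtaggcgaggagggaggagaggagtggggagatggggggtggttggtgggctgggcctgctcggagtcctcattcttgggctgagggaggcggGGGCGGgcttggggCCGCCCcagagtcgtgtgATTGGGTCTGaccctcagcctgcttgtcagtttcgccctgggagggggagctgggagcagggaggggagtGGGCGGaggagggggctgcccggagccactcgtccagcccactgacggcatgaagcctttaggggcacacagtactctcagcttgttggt
COL5A1: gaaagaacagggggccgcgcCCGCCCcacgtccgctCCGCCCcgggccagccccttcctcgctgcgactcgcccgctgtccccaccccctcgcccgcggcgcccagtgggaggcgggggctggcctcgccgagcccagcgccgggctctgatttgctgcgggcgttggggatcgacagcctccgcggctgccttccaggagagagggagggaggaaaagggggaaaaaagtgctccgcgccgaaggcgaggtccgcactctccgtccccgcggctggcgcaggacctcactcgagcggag
COL5A3: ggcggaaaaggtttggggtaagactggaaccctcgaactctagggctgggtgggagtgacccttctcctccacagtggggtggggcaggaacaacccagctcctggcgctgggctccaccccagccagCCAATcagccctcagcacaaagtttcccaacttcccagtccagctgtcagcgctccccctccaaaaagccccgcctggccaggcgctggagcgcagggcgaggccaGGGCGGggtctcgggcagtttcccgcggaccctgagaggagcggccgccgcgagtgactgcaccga
The windows are GC-rich, with 66% G or C in COL11A1, 74.0% in COL5A1 and 66.7% in COL5A3. GGGCGG matched 3 times in COL11A1, 2 times in COL5A1 and 1 time in COL5A3, and 45.0% of all 35116 promoter windows hold it. CCAAT matched in COL11A1, where its match lies directly before that of CAGAC without overlap, and in COL5A3, and 34.6% of windows hold it. CAGAC, present in 45.3% of windows, matched in COL11A1. TATAA (20.4% of windows) and TGACNNNGC (13.3%) matched in none of these 3 windows.

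Levels are given in CPM, counts scaled to TMM-normalised library totals. The median library held 25.71 M counts, the shallowest 9.34 M and the deepest 35.35 M. Replicate 1 of high dose Liriopis stands apart from the other libraries, with a mean correlation of 0.945 with its group against 0.984 or more in every library outside that group. It also widens the spread that all comparisons share in the fit, so some results it touches are also given without it. The others are given with all libraries only. Astrocyte markers were detected in part: vimentin (VIM) averaged 4785 CPM and SOX9 81.1 CPM in vehicle, while GFAP was at 0.148 and S100B at 0.0485 CPM, AQP4 was at 0 in 51 libraries and ALDH1L1 at 0 in 33. Markers of other cells were detected in part too. The fibroblast marker THY1 averaged 501.2 CPM in vehicle, the epithelial marker KRT18 123.1 CPM and the neuronal marker TUBB3 104.1 CPM. Of leukocyte markers, CD68 averaged 179.9 and PTPRC 10.09 CPM, whereas CD3E of T cells was at 0 in 58 libraries. Of oligodendrocyte markers, MBP averaged 6.75 CPM, whereas SOX10 and MOG were at 0 in 59 and 57 libraries. All libraries come from 1 cell line, so these markers are given as its expression and not as counts of cell types. In these bulk libraries fewer cells expressing a gene and less RNA per cell cannot be told apart.

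In vehicle, type I and the α1 chain of type V were the abundant transcripts. Per kb of exon, COL1A1 stood at 384 CPM, COL5A1 at 213, COL1A2 at 162, COL5A2 at 40.2, COL3A1 at 5.16, COL11A1 at 3.34 and COL5A3 at 0.212. The 7 genes together took 0.792% to 0.827% of all counts in vehicle libraries. Counts behind the values were ample for COL1A1, with 17525 to 128663 reads per library, and thin for COL5A3, with 6 to 56, which limits what can be resolved for that gene.

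**Figure D1:**
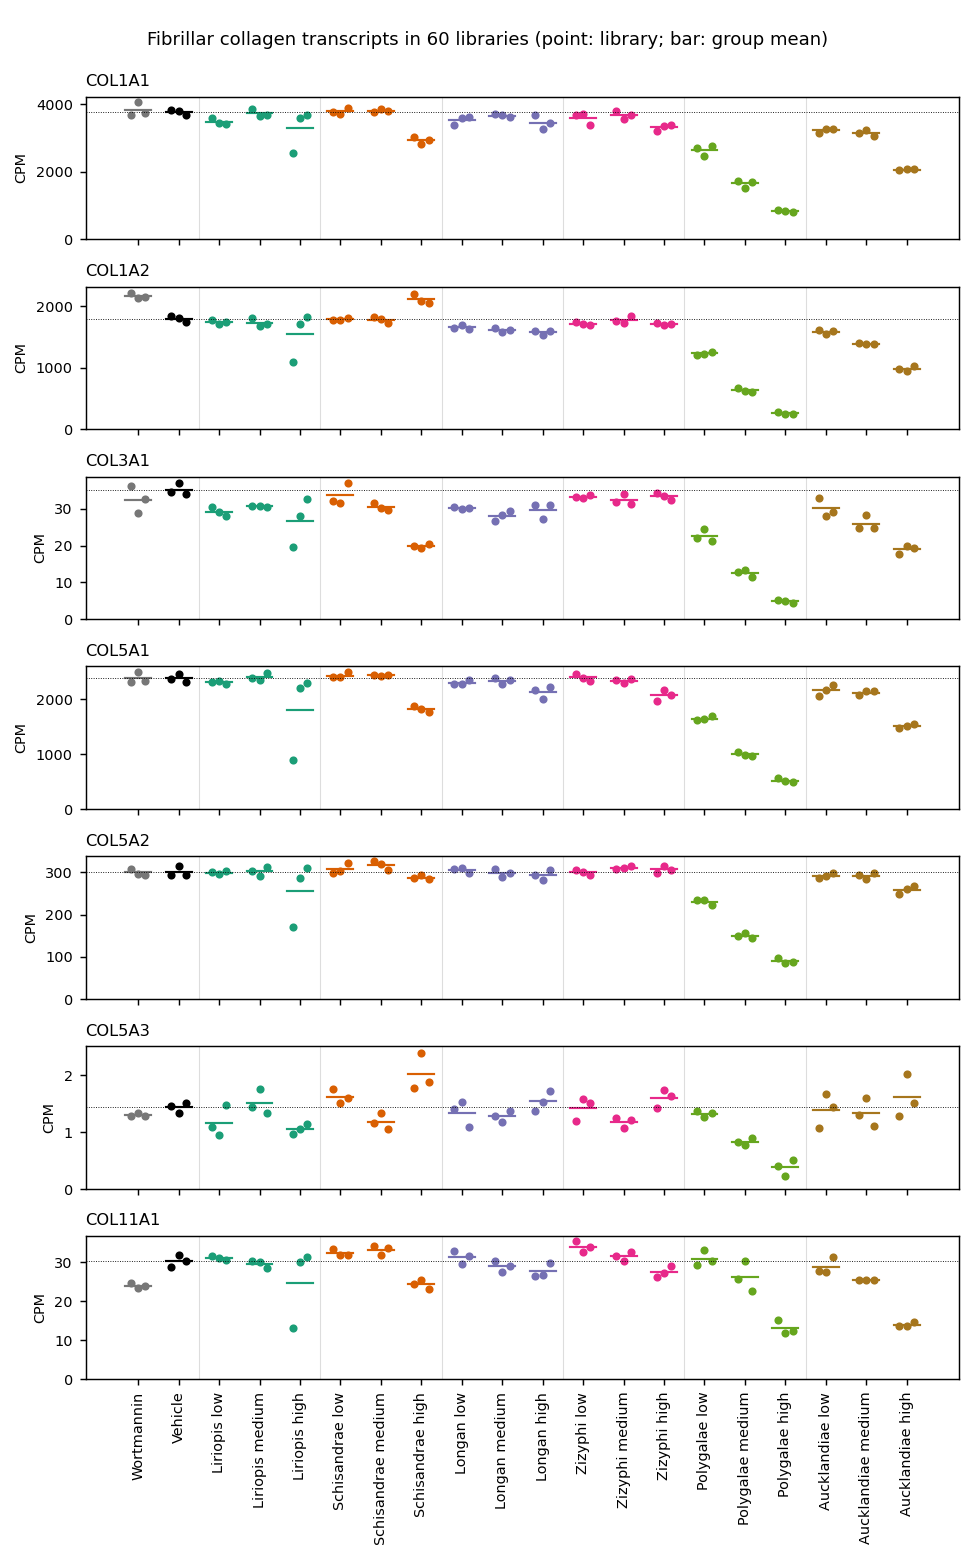
CPM of each collagen gene (vertical axes, linear from 0) in the 20 groups (horizontal axis), with a point per library and a bar at the group mean. High dose Polygalae is the lowest group for all 7 genes, and replicate 1 of high dose Liriopis is the lowest library of its group for all 7.

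Levels across the 20 groups differed by gene, and high dose Polygalae was lowest for all 7. The highest group mean exceeded the lowest 8.33-fold for COL1A2, 7.25-fold for COL3A1, 5.32-fold for COL5A3, 4.68-fold for COL5A1, 4.55-fold for COL1A1, 3.55-fold for COL5A2 and 2.59-fold for COL11A1. COL1A1 means ran from 3829 CPM in wortmannin down to 842.3 CPM in high dose Polygalae, and the 15 highest groups formed a series whose neighbours overlapped or touched library by library. Below them came high dose Schisandrae (2931 ± 106 CPM), low dose Polygalae (2644 ± 155), high dose Aucklandiae (2070 ± 17.6), medium dose Polygalae (1660 ± 112) and high dose Polygalae (842.3 ± 35.1; SD, n = 3 each), and each of these 5 groups lay apart from the next higher one. In COL1A2 the same groups except high dose Schisandrae stood lowest and apart from each other, and the 2 highest groups, wortmannin (2174 ± 45.4 CPM) and high dose Schisandrae (2114 ± 74.0 CPM), lay apart from all others. COL3A1 was highest in vehicle (35.16 ± 1.58 CPM), and its lowest groups, in falling order of mean, were low dose Polygalae, high dose Schisandrae and high dose Aucklandiae (which overlapped), medium and high dose Polygalae. In COL11A1 a single gap separated neighbouring groups, between wortmannin (23.9 ± 0.639 CPM) and high dose Aucklandiae (13.95 ± 0.527 CPM). Of the 19 pairs of neighbouring groups, those that did not overlap numbered 5 for COL1A1, COL1A2, COL3A1 and COL5A1, 3 for COL5A2 and COL5A3 and 1 for COL11A1.

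The dose series of Polygalae Radix, a root whose extract was tested at lower doses than the others, held the largest differences. COL1A1, the α1 chain of type I, had 3836, 3800.4 and 3671 CPM in vehicle, 2709.8, 2466 and 2754 CPM at 10 µg/mL, 1735, 1532 and 1712 CPM at 50 µg/mL, and 870.3, 854 and 803 CPM at 250 µg/mL. No library of one step overlapped with a library of the next. At 250 µg/mL the log2 fold change over vehicle was -2.16 (SE 0.07, adjusted p = 2.15e-28), which leaves 22.3% of the vehicle mean.

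COL1A2, the α2 chain of type I, had 1842, 1816 and 1751 CPM in vehicle, 1217, 1233 and 1251 CPM at 10 µg/mL, 665, 627 and 615 CPM at 50 µg/mL, and 279.7, 253 and 250.2 CPM at 250 µg/mL. It too stepped down without overlap, to 14.5% of vehicle (log2 fold change -2.79, SE 0.08, adjusted p = 4.14e-30). Only 10 of the 17792 tested genes had a p-value as small or smaller in this comparison, COL1A2 included.

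COL3A1, the type III chain, had 34.5, 37.0 and 34.0 CPM in vehicle, 22.1, 24.6 and 21.3 CPM at 10 µg/mL, 12.9, 13.3 and 11.5 CPM at 50 µg/mL, and 5.12, 4.94 and 4.49 CPM at 250 µg/mL. At 250 µg/mL its mean was 13.8% of vehicle (log2 fold change -2.85, SE 0.11, adjusted p = 2.8e-26), the smallest remaining share among the 7 genes.

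Among the type V chains, COL5A1 had 2375, 2466 and 2309 CPM in vehicle, 1619.8, 1639.5 and 1686 CPM at 10 µg/mL, 1047, 981 and 963 CPM at 50 µg/mL, and 565, 505 and 491 CPM at 250 µg/mL. COL5A2 had 293, 314 and 292 CPM in vehicle, 234, 234 and 223 CPM at 10 µg/mL, 149, 155 and 143 CPM at 50 µg/mL, and 96.1, 85.2 and 86.9 CPM at 250 µg/mL. Both stepped down at every dose without overlap, COL5A1 to 21.8% of vehicle (log2 fold change -2.20, SE 0.14, adjusted p = 4.45e-18) and COL5A2 to 29.8% (-1.75, SE 0.09, adjusted p = 6e-21). COL5A3, the rarest of the type V chains, had 1.46, 1.33 and 1.51 CPM in vehicle, 1.37, 1.26 and 1.33 CPM at 10 µg/mL, 0.821, 0.774 and 0.892 CPM at 50 µg/mL, and 0.411, 0.223 and 0.504 CPM at 250 µg/mL. Its low dose libraries overlapped with vehicle (log2 fold change -0.12, adjusted p = 0.866), and the high dose ones lay below all others (-1.92, SE 0.21, adjusted p = 1.88e-10).

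COL11A1, the type XI chain, had 28.9, 31.8 and 30.4 CPM in vehicle, 29.3, 33.1 and 30.2 CPM at 10 µg/mL, 25.8, 30.3 and 22.5 CPM at 50 µg/mL, and 15.2, 11.8 and 12.3 CPM at 250 µg/mL. The low and medium doses overlapped with vehicle (log2 fold changes 0.02 and -0.21, adjusted p = 0.965 and 0.232), and the call rested on the high dose (-1.21, SE 0.14, adjusted p = 2.76e-10). Without replicate 1 of high dose Liriopis in the fit, COL11A1 also passed the test at the medium dose.

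Against vehicle, all 7 genes fell at 250 µg/mL Polygalae, 6 at 50 µg/mL and 5 at 10 µg/mL. The background shares of all tested genes called in either direction were 46.1%, 30.1% and 6.46%, and 22.9% of genes fell at 250 µg/mL. The median log2 fold change of the 7 genes was -2.16 at 250 µg/mL, beside 0.02 over all tested genes. Within the library set, all 7 fell at high against low dose, with log2 fold changes of -1.65 for COL1A1, -2.24 for COL1A2, -2.22 for COL3A1, -1.66 for COL5A1, -1.37 for COL5A2, -1.81 for COL5A3 and -1.23 for COL11A1 (SE 0.07 to 0.22). In that comparison 36.2% of all tested genes were called and 18.3% fell. At medium against low dose 6 genes fell (10.9% of all tested genes called), all but COL11A1 (-0.24, adjusted p = 0.29). Without replicate 1 of high dose Liriopis, COL11A1 passed there too (-0.233, adjusted p = 0.0106), with 3653 genes called in all, against 1945. At high against medium dose all 7 fell (17.6% called). COL5A3 at medium against low dose (-0.67, adjusted p = 0.0281) was not called without the filter on low counts, where adjusted p was 0.132, nor in a fit of these 2 groups alone, where it was 0.0668. It was also lost without replicate 1 or 2 of the medium dose or replicate 1 or 3 of the low dose (adjusted p 0.0668 to 0.0965). All 21 calls at high dose Polygalae were kept when any single library of that group was left out.

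**Figure D2:**
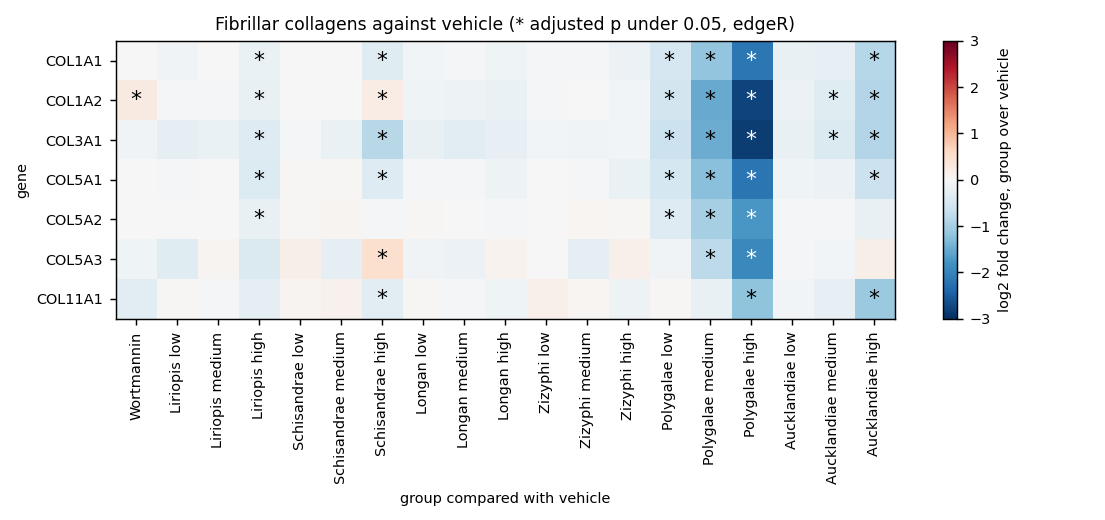
Log2 fold change of each collagen gene (rows) in each of 19 treated groups over vehicle (columns), as colour, with an asterisk where the adjusted p is under 0.05 in edgeR. Each gene has its lowest value at high dose Polygalae (-1.21 to -2.85).

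The share of all counts held by the 7 genes was 0.792% to 0.827% in vehicle, 0.583% to 0.608% at 10 µg/mL, 0.346% to 0.378% at 50 µg/mL and 0.184% to 0.198% at 250 µg/mL Polygalae. Other measures moved with the high dose too. Mitochondrially encoded transcripts held 12.42% to 13.37% of counts in its libraries, against 10.32% to 10.57% in vehicle. The 6 fibroblast markers summed to 412.5 to 429.6 CPM at high dose Polygalae, against 683.5 to 722.8 CPM in vehicle, with 5 of 6 lower. The 8 astrocyte markers, mostly VIM, summed to 1835 to 2075 CPM, against 4874 to 4939 CPM in vehicle. Of these, 2 of the 4 tested were called lower, beside 22.9% of all tested genes. SOX9 stood at 79.5 CPM, against 81.1 CPM in vehicle. The 6 markers of pericytes and smooth muscle summed to 136.7 to 138.9 CPM, against 287.1 to 297 CPM in vehicle, with 4 of 5 tested lower. Epithelial markers summed to 41.5 to 43.8 CPM, against 132.5 to 149 CPM in vehicle, and neuronal markers to 76.0 to 84.1 CPM, against 161.3 to 164.8 CPM in vehicle. Endothelial markers were lower too, at 26.99 to 31.65 CPM against 33.24 to 39.01 CPM. Oligodendrocyte markers lay above vehicle, at 10.51 to 12.13 CPM against 6.68 to 7.70 CPM. Leukocyte markers overlapped with vehicle, at 182.5 to 195.7 CPM against 184.8 to 196.2 CPM. The part of these differences in the collagen values was not tested. Leaving mitochondrial genes out of counts and totals changed none of the collagen calls. That refit alters only the scaling of counts, so it does not test that part.

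At high dose Aucklandiae Radix (500 µg/mL), from a costus root, 5 of the 7 genes fell, and COL5A2 and COL5A3 were not called. COL1A1 had 2050.1, 2076 and 2084 CPM at high dose Aucklandiae, against 3836, 3800.4 and 3671 CPM in vehicle (log2 fold change -0.86, SE 0.07, adjusted p = 1.13e-13). COL1A2 had 983, 951 and 1026 CPM, against 1842, 1816 and 1751 CPM in vehicle (-0.87, SE 0.08, adjusted p = 5.04e-12). COL3A1 had 17.7, 19.9 and 19.4 CPM, against 34.5, 37.0 and 34.0 CPM in vehicle (-0.89, SE 0.09, adjusted p = 4.15e-10). All treated libraries of these 3 genes lay well below all vehicle libraries.

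COL5A1 had 1475, 1518 and 1549 CPM at high dose Aucklandiae, against 2375, 2466 and 2309 CPM in vehicle (log2 fold change -0.65, SE 0.13, adjusted p = 0.000354). COL11A1 had 13.7, 13.6 and 14.6 CPM, against 28.9, 31.8 and 30.4 CPM in vehicle (-1.12, SE 0.14, adjusted p = 1.45e-08), the largest fold change of the 7 genes here. For COL5A2 the libraries also lay apart, at 249, 259 and 267 CPM against 293, 314 and 292 CPM in vehicle, but the difference missed the threshold (-0.21, SE 0.09, adjusted p = 0.113). It passed with replicate 1 of high dose Liriopis left out (adjusted p = 6.42e-05) and in a fit of these 2 groups alone (0.00302). COL5A3 overlapped, with 1.28, 2.02 and 1.52 CPM against 1.46, 1.33 and 1.51 CPM in vehicle (0.17, adjusted p = 0.653).

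Among all tested genes, 13.2% were called at high dose Aucklandiae against vehicle. The same 5 genes fell at high against low dose (10.6% of all tested genes called) by -0.64 for COL1A1, -0.69 for COL1A2, -0.67 for COL3A1, -0.52 for COL5A1 and -1.05 for COL11A1, and at high against medium dose (5.49% called). Without replicate 1 of high dose Liriopis, COL5A2 passed against low dose (-0.175, adjusted p = 0.0011) and medium dose (-0.173, adjusted p = 0.00199). It also passed in fits of the 2 groups alone (adjusted p = 0.0129 and 0.00867). The COL5A1 call at high against medium dose (-0.49, adjusted p = 0.0182) was lost without replicate 1 or 2 of the high dose or replicate 2 or 3 of the medium dose. At 100 µg/mL Aucklandiae, COL1A2 (1400.0, 1395 and 1387 CPM) and COL3A1 (24.9, 28.2 and 24.8 CPM) fell against vehicle, by -0.37 and -0.44 (adjusted p = 0.00801 and 0.00811), beside 0.455% of all tested genes. That count was 0 without vehicle replicate 2 or Aucklandiae medium replicate 3, 1 without vehicle replicate 1 or Aucklandiae medium replicate 1, and 5 without replicate 1 of high dose Liriopis, where 271 genes in all were called, against 81 with all libraries. None of the 7 was called at low dose against vehicle (0.00562% of all genes called) or at medium against low dose (0.0169%), and without replicate 1 of high dose Liriopis these counts were 2 and 1, beside 16 and 23 genes called in all. The fibroblast marker sum was 594.2 to 596.1 CPM at high dose Aucklandiae, against 683.5 to 722.8 CPM in vehicle, with 5 of 6 markers lower. Pericyte and smooth muscle markers summed to 223.1 to 230.9 CPM, against 287.1 to 297 CPM in vehicle, and epithelial markers to 101.3 to 105.1 CPM, against 132.5 to 149 CPM in vehicle. Other sums lay above vehicle: astrocyte markers at 5003 to 5096 CPM against 4874 to 4939 CPM, endothelial markers at 41.6 to 45.7 CPM against 33.2 to 39.0 CPM and oligodendrocyte markers at 9.04 to 10.95 CPM against 6.68 to 7.70 CPM. The part of these differences in the collagen values was not tested.

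At high dose Schisandrae Fructus (500 µg/mL), from schisandra berries, the genes moved in both directions. COL3A1 had 19.9, 19.2 and 20.4 CPM at high dose Schisandrae, against 34.5, 37.0 and 34.0 CPM in vehicle (log2 fold change -0.83, SE 0.09, adjusted p = 3.54e-10). COL1A1 had 3024, 2816 and 2953 CPM, against 3836, 3800.4 and 3671 CPM in vehicle (-0.36, SE 0.07, adjusted p = 1.73e-05). COL1A2, its partner in type I collagen, had 2196, 2095 and 2052 CPM, against 1842, 1816 and 1751 CPM in vehicle (0.23, SE 0.08, adjusted p = 0.0121). The chains of type I thus lay on opposite sides of vehicle, each without overlap.

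COL5A1 had 1881, 1822 and 1765 CPM at high dose Schisandrae, against 2375, 2466 and 2309 CPM in vehicle (log2 fold change -0.39, SE 0.13, adjusted p = 0.0136). COL11A1 had 24.5, 25.4 and 23.3 CPM, against 28.9, 31.8 and 30.4 CPM in vehicle (-0.32, SE 0.13, adjusted p = 0.0406). COL5A2 overlapped, with 286, 293 and 283 CPM against 293, 314 and 292 CPM in vehicle (-0.06, adjusted p = 0.595). COL5A3 was higher in all 3 libraries, at 1.78, 2.40 and 1.88 CPM against 1.46, 1.33 and 1.51 CPM in vehicle (0.49, SE 0.17, adjusted p = 0.0182), a call that was not made without the filter on low counts (adjusted p = 0.119).

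Some calls at high dose Schisandrae against vehicle rested on single libraries. COL11A1 was not called without vehicle replicate 2 or 3 or without any 1 of the high dose libraries (adjusted p 0.0553 to 0.118). COL1A2 was not called without vehicle replicate 3 (0.0517) or high dose replicate 1 (0.0587), nor COL5A3 without vehicle replicate 2 (0.0693) or high dose replicate 2 (0.159). COL1A1, COL3A1 and COL5A1 kept their calls with any 1 library of the 2 groups left out.

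These calls, 2 higher and 4 lower of 7, stand beside a background of 50.9% of all tested genes called. Within the library set, high against low dose gave COL1A1 -0.37, COL3A1 -0.76, COL5A1 -0.42 and COL11A1 -0.41 as lower and COL1A2 0.24 as higher, with 49.7% of all genes called. High against medium dose gave the same 4 lower and COL1A2 (0.24) and COL5A3 (0.77, adjusted p = 0.000424) higher, with 46.1% called. COL5A2 was called in neither comparison. Without replicate 1 of high dose Liriopis it passed against low dose (-0.103, adjusted p = 0.027) and against medium dose (-0.146, adjusted p = 0.00195). COL1A2 lost the call against medium dose without replicate 3 of that dose (adjusted p = 0.0577). At 20 µg/mL COL1A2 had 1783, 1776 and 1819 CPM and COL1A1 3773, 3714 and 3897 CPM. At 100 µg/mL COL3A1, at 31.7, 30.1 and 29.8 CPM, lay below every vehicle library and COL5A3 averaged 82.4% of vehicle. None of the 7 was called at medium dose against vehicle (1.02% of genes called), low dose against vehicle (0%, 0 genes at an adjusted p under 0.05 in edgeR, 4 in DESeq2 and 429 at an unadjusted p under 0.05) or medium against low dose (0.332%). All 6 fibroblast markers were lower at high dose Schisandrae, with sums of 448.9 to 481.7 CPM against 683.5 to 722.8 CPM in vehicle. Sums of other lists differed too: pericyte and smooth muscle markers were at 212.4 to 228.8 CPM against 287.1 to 297 CPM in vehicle, neuronal markers at 79.2 to 86.5 CPM against 161.3 to 164.8 CPM, epithelial markers at 62.4 to 66.4 CPM against 132.5 to 149 CPM and oligodendrocyte markers at 11.7 to 14.5 CPM against 6.68 to 7.70 CPM. Their part in the collagen values was not tested.

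**Figure D3:**
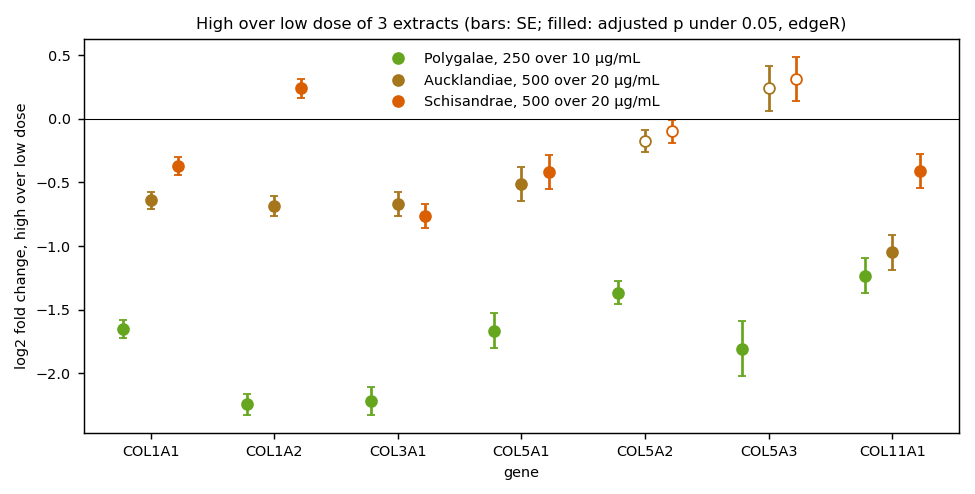
Log2 fold change of each collagen gene at high over low dose for Polygalae (250 over 10 µg/mL), Aucklandiae and Schisandrae (500 over 20 µg/mL), with SE as bars and filled points where the adjusted p is under 0.05 in edgeR. All 7 Polygalae points lie below 0, and COL1A2 lies above 0 for Schisandrae (0.24) and below 0 for Aucklandiae (-0.69).

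Aucklandiae and Schisandrae were given at matched doses, so the effect of 500 over 20 µg/mL was compared between them directly, a test added after the data were seen. The dose effect on COL1A2 was 0.24 for Schisandrae and -0.69 for Aucklandiae, a difference of 0.93 on the log2 scale (SE 0.11, adjusted p = 3.75e-09). COL11A1 differed by 0.64 (SE 0.19, adjusted p = 0.00713), with -0.41 for Schisandrae and -1.05 for Aucklandiae, and COL1A1 by 0.27 (SE 0.10, adjusted p = 0.0287), with -0.37 for Schisandrae and -0.64 for Aucklandiae. In that test 32.6% of all tested genes were called. COL3A1 differed by -0.09 (SE 0.13), COL5A1 by 0.10 (SE 0.19), COL5A2 by 0.08 (SE 0.13) and COL5A3 by 0.07 (SE 0.25), none of them called. The COL1A1 difference was not called without the filter on low counts (adjusted p = 0.152). It was also lost without replicate 1 or 3 of high dose Schisandrae, 1 or 2 of low dose Schisandrae, 1 of high dose Aucklandiae or 2 or 3 of low dose Aucklandiae (adjusted p 0.0526 to 0.0722).

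The ratio of COL1A1 to COL1A2 within a library is free of library size and differed between the 3 extracts. It was 3.11, 3.38 and 3.21 at high dose Polygalae and 1.38, 1.34 and 1.44 at high dose Schisandrae, against 2.08, 2.09 and 2.10 in vehicle. At high dose Aucklandiae the log2 ratio was 1.069, against 1.064 in vehicle, with overlapping libraries. Over the Polygalae doses the mean log2 ratio was 1.064 in vehicle, 1.098 at 10 µg/mL, 1.383 at 50 µg/mL and 1.692 at 250 µg/mL. High dose Polygalae and Schisandrae did not overlap with vehicle or with their own low dose, with log2 differences of 0.594 for Polygalae and -0.610 for Schisandrae at high against low dose. The exact two-sided permutation p was 0.1 in each, the smallest that 3 against 3 libraries can give, and no p passed after adjustment over 156 ratio comparisons (smallest adjusted p 0.19).

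The ratio of COL5A1 to COL5A2, the main type V chains, was lower at high than at low dose for several extracts. The log2 difference was -0.339 for Aucklandiae, -0.316 for Schisandrae, -0.297 for Polygalae and -0.241 for Zizyphi, each without overlap and each with an exact permutation p of 0.1. For Longan it was -0.056, with overlapping libraries. COL3A1 over COL1A1 was lower at high dose by -0.574 for Polygalae and -0.387 for Schisandrae without overlap, and by -0.022 for Aucklandiae with overlap. COL11A1 over COL1A1, a ratio added after the data were seen, was higher at high dose Polygalae by 0.404 and lower at high dose Aucklandiae by -0.409, both against the low dose and without overlap.

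**Figure D4:**
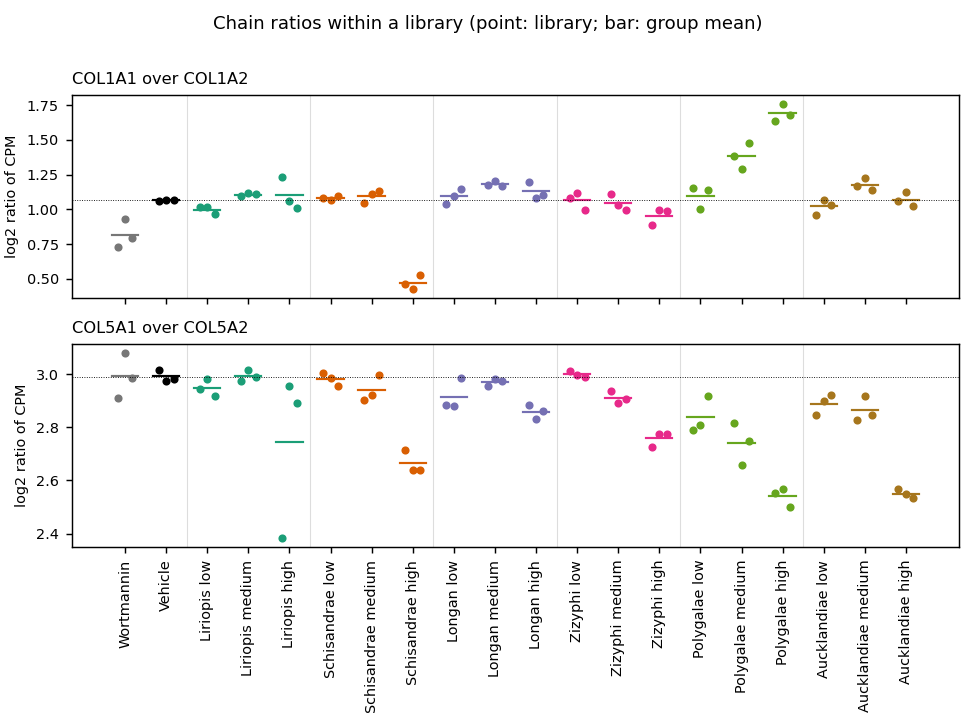
Log2 ratio of COL1A1 to COL1A2 and of COL5A1 to COL5A2 within each library (vertical axes) in the 20 groups (horizontal axis), with a point per library, a bar at the group mean and a dotted line at the vehicle mean. The ratio of the type I chains is highest at high dose Polygalae (mean 1.692) and lowest at high dose Schisandrae (0.471).

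Under wortmannin, 1 of the 7 genes changed. COL1A2 had 2225, 2138 and 2159 CPM under wortmannin, against 1842, 1816 and 1751 CPM in vehicle (log2 fold change 0.27, SE 0.08, adjusted p = 0.0154), beside 12% of all tested genes called. That call was not made without vehicle replicate 3 or without wortmannin replicate 1. COL1A1 overlapped with vehicle, at 3683, 4067 and 3738 CPM (0.02, adjusted p = 0.898). COL11A1 had 24.6, 23.3 and 23.9 CPM, against 28.9, 31.8 and 30.4 CPM in vehicle, a difference without overlap that missed the threshold (-0.35, SE 0.13, adjusted p = 0.0751). It passed in a fit of these 2 groups alone (adjusted p = 0.000538) and without replicate 1 of high dose Liriopis (0.000142). Markers of pericytes and smooth muscle summed to 179.1 to 198.8 CPM under wortmannin, against 287.1 to 297 CPM in vehicle. Fibroblast markers were lower too, at 631 to 666.4 CPM against 683.5 to 722.8 CPM. Epithelial markers were higher, at 154.7 to 162.6 CPM against 132.5 to 149 CPM, as were neuronal markers, at 179.1 to 186.2 CPM against 161.3 to 164.8 CPM. The part of these differences in the collagen values was not tested.

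At high dose Liriopis seu Ophiopogonis Tuber (500 µg/mL), the values rested on 1 library. COL1A1 had 2574, 3591 and 3698 CPM, COL1A2 1096, 1722 and 1835 CPM, COL5A1 887, 2211 and 2299 CPM and COL11A1 13.0, 30.0 and 31.3 CPM, in each case with replicate 1 far below the others. With all libraries, COL1A1, COL1A2, COL3A1, COL5A1 and COL5A2 passed the test against vehicle, with log2 fold changes of -0.20, -0.22, -0.39, -0.41 and -0.23, beside 34% of all genes called. Without replicate 1 none of the 7 passed, and without a single vehicle library 1 or 2 passed. The count of all genes called moved as well, from 6045 with all libraries to 1 without replicate 1, and to 3405 and 2546 without vehicle replicate 2 and 3. At high against medium dose COL1A1, COL5A1 and COL5A2 passed (26.6% of all genes called), and none did without replicate 1, where 1 gene in all was called. At high against low dose none passed (16.1% called). Medium dose against vehicle (0.0112%), low dose against vehicle (0.00562%) and medium against low dose (0%, 0 genes in edgeR with 518 at an unadjusted p under 0.05) gave no collagen call. Between extracts of this library set, high dose Schisandrae against high dose Liriopis gave COL1A1 and COL3A1 lower and COL1A2 and COL5A3 higher (59.7% of all genes called). In a fit of these 2 groups alone the call of COL5A3 was made (adjusted p = 0.0355) and those of COL1A1, COL1A2 and COL3A1 were not (0.481, 0.184 and 0.164). The COL1A1 call was also lost without the filter (0.0973) and without replicate 2 or 3 of either group (0.0607 to 0.387). COL5A1 was at 0.02 there, and at -0.31 (adjusted p = 1.06e-07) without replicate 1 of high dose Liriopis.

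Longan Arillus and Zizyphi Semen, a fruit and a seed, gave no collagen call in any comparison with all libraries. High dose Longan libraries held 3679, 3262 and 3449 CPM of COL1A1 and high dose Zizyphi libraries 3202, 3362 and 3391 CPM, against 3836, 3800.4 and 3671 CPM in vehicle. The shares of all tested genes called against vehicle were 0.843%, 0.0281% and 0.00562% at high, medium and low dose of Longan and 0.607%, 0.0393% and 0% (0 genes in edgeR, 744 at an unadjusted p under 0.05) at those of Zizyphi. Between doses they were 0.247% at high against low, 0% at medium against low (0 genes in edgeR, 260 at an unadjusted p under 0.05) and 0.0955% at high against medium dose of Longan, and 0.674%, 0.0112% and 0.146% for the same comparisons of Zizyphi. High dose Zizyphi against high dose Longan called 1.01% of genes and no collagen. With replicate 1 of high dose Liriopis left out of the fit, small differences passed: COL1A2, COL3A1 and COL5A1 were lower at high dose Longan, and COL1A1 and COL5A1 at high dose Zizyphi, all against vehicle. In that fit 1269 genes in all were called for high dose Longan, against 150 with all libraries, and 420 for high dose Zizyphi, against 108. COL1A2 stood at -0.18, COL3A1 at -0.23 and COL5A1 at -0.15 for Longan, and COL1A1 at -0.18 and COL5A1 at -0.20 for Zizyphi. COL3A1 at medium dose Longan against vehicle (-0.32), COL5A1 (-0.21) and COL11A1 (-0.30) at high against low dose Zizyphi and COL5A1 at high against medium dose Zizyphi passed too.

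Over the 39 comparisons the 7 genes gave 85 calls among 273 pairs of gene and comparison, of which 77 were also made without replicate 1 of high dose Liriopis. The 8 lost calls all involved high dose Liriopis, and 25 others were gained. Counts of all genes called rose in several comparisons of that fit too, for wortmannin to 4108, against 2129. With all libraries, the share of all tested genes called ran from 0% to 59.7% by comparison. All calls were lower for COL1A1 (15), COL3A1 (15), COL5A1 (14), COL11A1 (9) and COL5A2 (8), whereas COL1A2 was lower in 11 and higher in 5 and COL5A3 lower in 5 and higher in 3. Comparisons that share libraries are not independent, so these counts are a summary only.

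Across the 20 group means of log2 CPM, as a description of groups that share the vehicle, the dose series and the normalisation, Pearson r was 0.984 between COL1A1 and COL5A1, 0.979 between COL1A1 and COL3A1, 0.969 between COL1A1 and COL1A2, and 0.486 between COL5A3 and COL11A1. In the 16 groups left without the Polygalae doses and high dose Schisandrae, COL11A1 with COL1A1 was at 0.879, while COL5A3 with the other 6 genes lay between -0.24 and 0.16. These 16 groups keep high dose Aucklandiae, the lowest of them in COL11A1 (13.95 CPM) and COL1A1 (2070 CPM). They also keep high dose Liriopis with its replicate 1 that stands apart, and r without these groups was not computed. Among 10646 eligible genes with a mean of at least 5 CPM, the pattern most like COL1A1 was that of EFEMP1, a fibulin (r = 0.981), then DOCK2 and AGRN. For COL1A2 they were MAGED1 (0.991), GGCX and SPARC, for COL3A1 the fibril-associated collagen COL21A1 (0.985), KIFAP3 and ALDH7A1, and for COL5A1 the matricellular protein gene POSTN (0.985), AGRN and the procollagen protease gene BMP1. COL5A2 was followed most closely by TENM2 (0.996), AOX1 and NOMO2, COL5A3 by CLTC (0.953), DDB1 and COPA, and COL11A1 by SCARB1 (0.887), the collagen chaperone gene SERPINH1 and TRIM6.

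The genes that modify, export, cleave and crosslink these chains were read from 11 lists with 90 tested genes. At high against low dose Polygalae, 8 rose and 54 fell, with a median log2 fold change of -0.42 beside 0.01 over all genes and -1.66 for the 7 collagens. Of all tested genes 17.9% rose and 18.3% fell. In hydroxylation and folding none of 17 rose and 15 fell, led by P4HA1 (96.3 ± 0.80 CPM at high dose, 172.2 ± 9.28 CPM at low dose, log2 fold change -0.84, adjusted p = 3e-19), FKBP10 (-0.71) and P4HB (-0.69), which encode prolyl 4-hydroxylase subunits and a prolyl isomerase. In export, the COPII coat genes SEC31A (-0.78), SEC13 (-0.54) and SEC23A (-0.51) were among 5 of 7 that fell, and KLHL12, a ubiquitin ligase adaptor for large carriers, rose (0.23). In propeptide cleavage 6 of 7 fell, with PCOLCE, the enhancer of the C-proteinase, at -1.05, TLL1 at -0.83 and BMP1 at -0.71.

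All 5 crosslinking genes fell at high dose Polygalae, with LOXL2 at 479 ± 9.93 CPM, against 974.1 ± 22.7 CPM at low dose (log2 fold change -1.02, adjusted p = 7.23e-12), LOXL3 at -0.48 and LOXL1 at -0.43. Of 8 fibril organisers 7 fell, among them SPARC, a collagen-binding glycoprotein (-0.99), and the small proteoglycans DCN (-1.21) and LUM (-0.90). Of 6 fibril-associated collagens 4 fell, COL21A1 to 1.06 ± 0.067 CPM, against 4.43 ± 0.53 CPM at low dose (-2.05), COL14A1 (-1.43) and COL16A1 (-1.11). Other fibrillar collagens were split, with COL27A1 higher (0.46, adjusted p = 2.85e-06) and COL24A1, at under 0.3 CPM in both groups, lower (-1.97, adjusted p = 0.029). Collagen receptors gave 5 of 8 lower, led by MRC2 (-0.97), ITGB1 (-0.56) and ITGA1 (-0.95). Collagen-degrading enzymes gave 2 higher and 3 lower of 7, with MMP14 at 0.27, MMP2 at -0.57 and FAP at -0.23. TGF-beta pathway genes gave 4 higher and 1 lower of 12, with the receptor TGFBR1 at 0.63, SMAD3 at 0.26 and the ligand TGFB3 at -0.37. Of 10 regulators of collagen promoters and mRNA, YBX1 (-0.41) and NFYB (-0.17) fell and none rose.

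**Figure D5:**
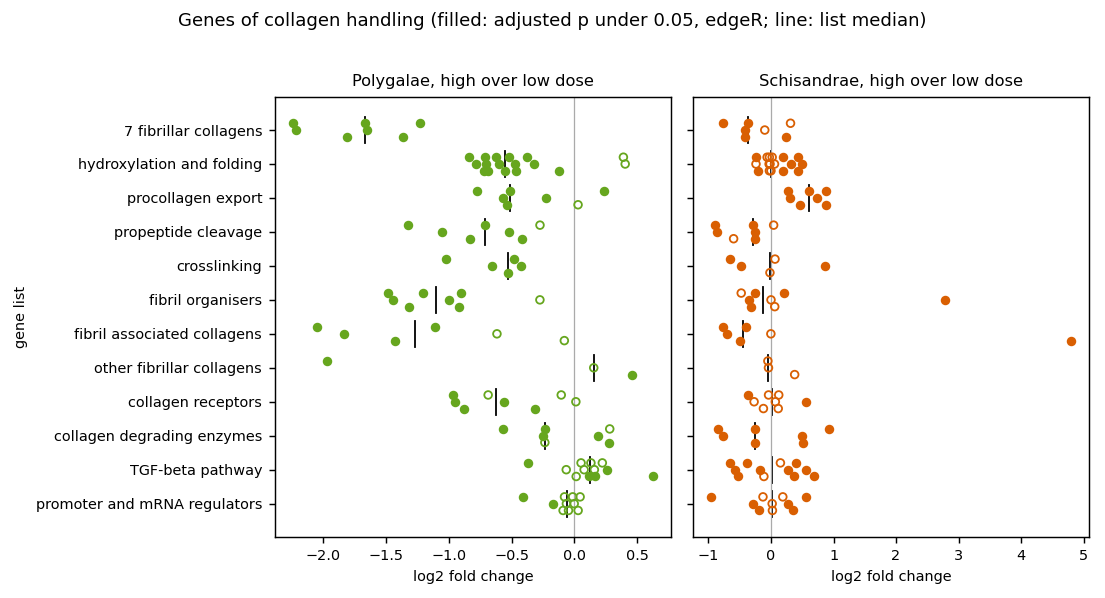
Log2 fold changes at high over low dose (horizontal axes) of the genes in each collagen handling list (rows) for Polygalae and Schisandrae. Points are filled where the adjusted p is under 0.05 in edgeR, with a line at the list median. All 7 export genes lie to the right of 0 for Schisandrae, and 5 of them are called to the left of 0 for Polygalae.

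At high against low dose Aucklandiae, 8 of the 90 genes rose and 13 fell, with a median of -0.08, while 5.32% of all tested genes rose and 5.30% fell. Without replicate 1 of high dose Liriopis the counts were 11 and 29, and all genes called then numbered 3489, against 1890 with all libraries. None of the 7 export genes was called. SERPINH1, the collagen chaperone, fell to 268.5 CPM at high dose, against 397.7 CPM at low dose (log2 fold change -0.57, SE 0.06, adjusted p = 2.34e-10), while P4HA2 (0.25) and PLOD2 (0.30) of the same list rose. The organisers THBS2 (-0.68), DCN (-0.54) and LUM (-0.50) fell. MMP14, a membrane protease that cleaves collagen, rose (0.78, adjusted p = 4.74e-13), as did ITGA2, the α2 subunit of a collagen-binding integrin, at 571.2 CPM against 218.6 CPM at low dose (1.39, adjusted p = 3.15e-08).

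At high against low dose Schisandrae, 29 of the 90 genes rose and 29 fell, with a median of -0.01. Of all tested genes 25% rose and 24.8% fell, so the counts over the 90 genes lie near the background. All 7 export genes rose, led by SEC23A (421.2 ± 12 CPM at high dose, 230.3 ± 6.57 CPM at low dose, log2 fold change 0.87, adjusted p = 3.12e-14), SEC13 (0.73) and MIA2 (0.61). In hydroxylation and folding 6 rose and 2 fell, with FKBP14 (0.50), FKBP10 (0.43) and P4HA2 (0.43) among the rises. Propeptide cleavage had 5 lower and none higher of 7, with TLL1 at -0.89, ADAMTS14 at -0.86 and BMP1 at -0.25. Crosslinking was split, as LOX rose (0.87, adjusted p = 1.81e-11) and LOXL1 (-0.65) and LOXL4 (-0.49) fell. Among organisers TNXB rose to 3.45 ± 0.34 CPM, against 0.50 ± 0.13 CPM at low dose (2.78, SE 0.34), SPARC rose (0.21) and DCN fell (-0.33). TGF-beta genes gave 5 higher and 5 lower of 12, with SMAD3 at 0.69 and SMAD7, an inhibitor of the pathway, at -0.53. LARP6, which binds the stem-loop of type I collagen mRNAs, rose (0.57, adjusted p = 1.09e-06) and CIITA fell (-0.96, adjusted p = 7.45e-06).

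Under wortmannin, 18 of the 90 genes rose and 7 fell against vehicle, while 5.45% of all tested genes rose and 6.52% fell. Without replicate 1 of high dose Liriopis the counts were 31 and 12, and all genes called then numbered 4108, against 2129 with all libraries. Collagen receptors gave 6 of 8 higher, among them MRC2 (503 ± 8.65 CPM under wortmannin, 367.1 ± 8.58 CPM in vehicle, log2 fold change 0.45, adjusted p = 8.75e-07), DDR1 (0.50) and ITGA11 (0.72). Collagen-degrading enzymes gave 5 of 7 higher, with MMP2 (0.46), MMP1 (0.35) and FAP (0.34). Hydroxylation and folding had 1 higher and 3 lower of 17, and TGFB1, a ligand known for raising collagen expression, rose (0.41, adjusted p = 1.96e-05).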

How the data were processed

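The authors deposited 1 table of expected counts per gene, and per the submitters' processing notes reads were handled with Trim Galore 0.6.5, STAR 2.7.3a, RSEM 1.3.3 and FastQC 0.11.9 on GRCh38. No source used here gives the annotation release or the strand setting. The labels' protocols name a directional mRNA kit and paired reads of 100 bp. Expected counts were rounded to whole numbers.

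The quasi-likelihood test of edgeR 4.0.16 (R 4.3.3) was fitted to all 60 libraries, with group means, no covariate, TMM normalisation, a count minimum of 10 in the expression filter and 40 residual degrees of freedom. The biological coefficient of variation was 8.72%. P-values were adjusted by Benjamini-Hochberg over 17792 genes within each of 39 comparisons (19 with vehicle, 18 between doses, 2 between extracts), and a call is an adjusted p under 0.05. Every adjusted p of a gene is from edgeR unless another tool is named. Values set against vehicle or a lower dose are log2 fold changes, and CPM values carry SD over n = 3. Log2 CPM used a prior count of 2. Ratios of genes used exact permutation tests.

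All 7 collagens are named. From each pathway list up to 3 genes with the smallest p were eligible, and for each collagen the 3 genes of highest correlation. The members and lists were chosen with earlier results of these data known. The alternatives were RLE factors, mitochondrial genes left out, DESeq2 1.42.0, no filter, only the groups compared, a replicate block, and single libraries left out. The fit was tested on simulated data. Symbols were found for 56558 of 60675 identifiers, and 57055 were in GENCODE 29.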

Additional observations from a re-analysis of the deposited data

Results flagged for a closer look

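Dose effects of 500 over 20 µg/mL differed between Schisandrae and Aucklandiae for 3 collagen genes in an interaction test added after the data were seen. The difference, Schisandrae minus Aucklandiae on the log2 scale, was 0.926 for COL1A2 (SE 0.11), 0.638 for COL11A1 (SE 0.19) and 0.268 for COL1A1 (SE 0.10). All 3 libraries of each high dose group lay beyond all 3 of their low dose group in these 3 genes. In the same test 32.6% of all tested genes were called. The COL1A1 difference was not called without the filter on low counts (adjusted p = 0.152) or in 7 fits that each left out 1 library (adjusted p 0.0526 to 0.0722). Each dose effect was taken within 1 library set.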

How the results depend on the processing

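Of 88 collagen calls (85 in the 39 comparisons and 3 between dose effects), all 88 were kept with RLE size factors, without mitochondrial genes, in DESeq2 and with the replicate block, 82 without the filter on low counts, 76 in fits of only the groups compared and 80 without Liriopis high replicate 1. The replicate numbers were not used as pairs in the main fit, since no comparison had every same-number correlation over 0.1. This cut-off cannot exclude that libraries of the same number share some handling. Counts of collagens called changed by over 1.5 times in fits of only the groups compared for wortmannin (2, against 1), high dose Liriopis against vehicle (0, against 5) and against medium dose (0, against 3), high dose Longan against vehicle (1, against 0), high against low dose Zizyphi (1, against 0) and high dose Schisandrae against high dose Liriopis (1, against 4). High against low dose Liriopis gave 1 call without the filter and 2 in DESeq2, against 0, and high against medium dose gave 1 without the filter. With single libraries left out, counts ran from 0 to 2 for wortmannin, 0 to 6 for high dose Liriopis against vehicle, low and medium dose, 0 to 3 for high and 0 to 1 for medium dose Longan, 0 to 2 for high dose Zizyphi against vehicle and low dose and 0 to 1 against medium dose, 0 to 5 for medium and 0 to 2 for low dose Aucklandiae and 0 to 1 between these doses. COL5A1 in high dose Schisandrae against high dose Liriopis was 0.02, turned to -0.311 without Liriopis high replicate 1, the library at 887 CPM, and stood at 0.234 without replicate 3 of that group. The cause of the other changes was not tested.

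Counts of all genes called moved by over 1.5 times in several comparisons. For wortmannin they were 1180 without the filter and 4083 in the groups alone, against 2129, for high dose Liriopis 0 in the groups alone, against 6045, for low dose Polygalae 608 and 1934, against 1150, and for high dose Aucklandiae 1548 and 3726, against 2353. Fits of the groups alone also gave 479 for high dose Longan against vehicle, against 150, and 0 for high against medium dose Liriopis, against 4735. Without Liriopis high replicate 1 the counts of all genes called were 4108 for wortmannin, 1 for high dose Liriopis, 2512 for low dose Polygalae and 4126 for high dose Aucklandiae. COL5A3, with 6 to 56 reads per library, is limited by depth.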
